A study of Mus musculus with 12 samples.

Results

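The genes described here encode the nuclear-encoded subunits of the mitochondrial respiratory chain, measured in mouse dendritic cells. Probe sets were taken where the platform annotation gave exactly 1 gene symbol and that symbol began with Nduf followed by a, b, c, s or v, with Uqcr, with Cox and a digit from 4 to 8 or with Atp5, or was Sdha, Sdhb, Sdhc or Sdhd. This gave 60 probe sets, 1 for each gene, of 23332 in the table, of which 14996 had 1 symbol. They held 54 subunit genes, of which 27 belong to complex I, 4 to complex II, 5 to complex III, 10 to complex IV and 8 to complex V. The other 6 (Ndufaf1, Ndufaf2, Ndufaf3, Ndufaf4, Ndufaf5 and Ndufaf7) share the Nduf prefix but encode factors that assemble complex I and are not part of it. A further 7 probe sets matched only through 1 of several symbols and were left out, and no filter on low values was applied.

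RNA was measured on 12 Affymetrix exon arrays, 3 in each of 4 groups of C57BL/6 mice: Cre- control mice and Cre+ mice with dendritic cell (DC) specific targeting of the TGF-beta receptor gene Tgfbr2, each in spleen and mesenteric lymph node (MLN). Spleen samples were CD11c+ cells from a magnetic sort, MLN samples were CD11c+CD103+ cells from a flow sort of pools of 4 mice, and all were untreated and used directly. The source of each spleen sample is named as a mouse in the singular. Age, sex, the promoter that drives Cre and the deleted exons are not given in the sources used here. No label says that the arrays of a group come from separate animals, so p-values measure the spread between these arrays only, which may be technical. Tgfbr2 itself averaged 10.94 and 10.70 in spleen Cre- and Cre+ (adjusted p = 0.138) and 9.58 and 9.46 in MLN (adjusted p = 0.524), so neither difference passed the test. Of the DC marker list, H2-Aa, Cd74 and Flt3 lay above the 96th percentile in every group and Zbtb46 between the percentiles 61.4 and 68.6. Itgae, which encodes CD103, lay at 48.3 and 53.7 in spleen and 74.4 and 67.5 in MLN. Summed levels (log2) of 7 DC markers were 15.37 to 15.41 in spleen Cre- and 14.89 to 15.05 in MLN Cre-. Those of 7 B cell markers were 14.59 to 14.86 and 13.90 to 14.04. The share of B cells in the samples was not tested. Array medians ranged from 7.03 to 7.08 in spleen and from 6.74 to 6.89 in MLN, and the SD over probe sets from 2.37 to 2.42 and from 1.80 to 1.91. The value distributions of the tissues thus differed, and the scaling affects any MLN value set against a spleen value.

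The respiratory chain sits in the inner mitochondrial membrane. Complex I takes electrons from NADH and complex II takes them from succinate, a step of the tricarboxylic acid (TCA) cycle; both pass them to coenzyme Q, from which complex III hands them to cytochrome c and complex IV to oxygen. Complexes I, III and IV pump protons, and complex V, the ATP synthase, uses the returning protons to make ATP. Core subunits carry out electron transfer or catalysis, whereas accessory subunits surround and stabilise them. DC are known to shift between respiration and glycolysis as they mature. The subunits encoded in mitochondrial DNA were not analysed here.

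Upstream sequences were read to show the DNA in front of the genes on which the comparisons turn. A window from 250 bases before to 50 after the start was held by RefSeq (GRCm38.p6) for 49 of the 60 genes. Its median G plus C content was 57.3%, against 52.7% over all 32851 windows. The letters GCATGCGC, part of the site of nuclear respiratory factor 1 (NRF1, a regulator of respiratory genes), were found on either strand in the windows of 7 of the 49 genes (14.3%), against 2.71% of all windows. These were Ndufa6, Ndufa8, Sdhb, Uqcrc1, Cox6a1, Ndufaf4 and Ndufaf5. The full NRF1 core, which contains these letters, was found for 4 genes (8.16%, against 0.971%). The GC box GGGCGG was found for 24 genes (49%, against 35.7%), AAGATGGCG, a site of the factor YY1, for 5 (10.2%, against 1.4%), TATAAA for 6 (12.2%, against 13.6%) and CCGGAAGT, a site of ETS factors, for 0 (against 3.89%). Members were counted per gene (52 windows for 49 genes) and the background per window (32851 windows for 27025 genes), so the shares differ in unit. These are matches of letters, not measured binding.

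The 250 upstream bases are printed 5′ to 3′ on the strand of the gene for Ndufs8 and Ndufa6, the genes called between genotypes in spleen, and for Sdhb and Cox6a1, subunits of complexes II and IV whose windows hold the NRF1 letters. Capitals mark GCATGCGC, or the full NRF1 core around it in Cox6a1, and the Ndufs8 window has neither. The windows are chr19:3912775-3913024 (minus strand), chr15:82354292-82354541 (minus), chr4:140961021-140961270 (plus) and chr5:115348959-115349208 (minus) in the order printed.
Ndufs8: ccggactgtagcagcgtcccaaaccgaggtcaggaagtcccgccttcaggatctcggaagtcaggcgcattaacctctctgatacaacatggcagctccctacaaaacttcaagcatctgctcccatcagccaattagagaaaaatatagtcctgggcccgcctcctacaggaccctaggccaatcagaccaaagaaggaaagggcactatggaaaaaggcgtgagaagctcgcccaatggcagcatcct
Ndufa6: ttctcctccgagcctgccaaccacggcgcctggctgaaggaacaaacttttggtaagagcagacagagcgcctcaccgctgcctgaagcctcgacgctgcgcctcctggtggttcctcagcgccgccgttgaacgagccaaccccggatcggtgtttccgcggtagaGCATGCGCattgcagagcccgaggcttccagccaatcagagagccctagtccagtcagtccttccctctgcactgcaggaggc
Sdhb: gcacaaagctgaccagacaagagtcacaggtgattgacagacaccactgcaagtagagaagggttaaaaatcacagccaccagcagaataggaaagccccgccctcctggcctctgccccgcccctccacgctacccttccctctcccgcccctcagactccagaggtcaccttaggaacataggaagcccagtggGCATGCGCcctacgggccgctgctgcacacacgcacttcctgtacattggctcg
Cox6a1: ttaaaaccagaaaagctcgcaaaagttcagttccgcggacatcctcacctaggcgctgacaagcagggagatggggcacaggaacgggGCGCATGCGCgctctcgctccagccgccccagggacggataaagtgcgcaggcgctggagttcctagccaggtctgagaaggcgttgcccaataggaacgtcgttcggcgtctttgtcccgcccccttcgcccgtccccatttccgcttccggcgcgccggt

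Within an array, the 60 genes lay in the upper part of the signal range. Their median percentile among all probe sets was 79.8, 76.8 and 78.1 in the spleen Cre- arrays and 81.6, 81.3 and 81.3 in the spleen Cre+ arrays. It was 75.7, 75.5 and 76.3 in MLN Cre- and 75.3, 76.9 and 69.2 in MLN Cre+. All spleen Cre+ arrays stood above all spleen Cre- arrays, every MLN array except the second of Cre+ lay below all spleen arrays, and the third MLN Cre+ array stood apart on the low side. In MLN Cre+ the summed signal of 16 cytosolic ribosome genes ranged from 12.61 to 13.06 (log2) over the arrays. Its part in the results was not tested, and values without it are given where they differ. The spread between arrays of a group was ordinary for the 60 genes in most groups: their median SD was 0.14, 0.09, 0.15 and 0.13 in spleen Cre-, spleen Cre+, MLN Cre- and MLN Cre+, against 0.14, 0.14, 0.14 and 0.14 over all probe sets.

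**Figure D1:**
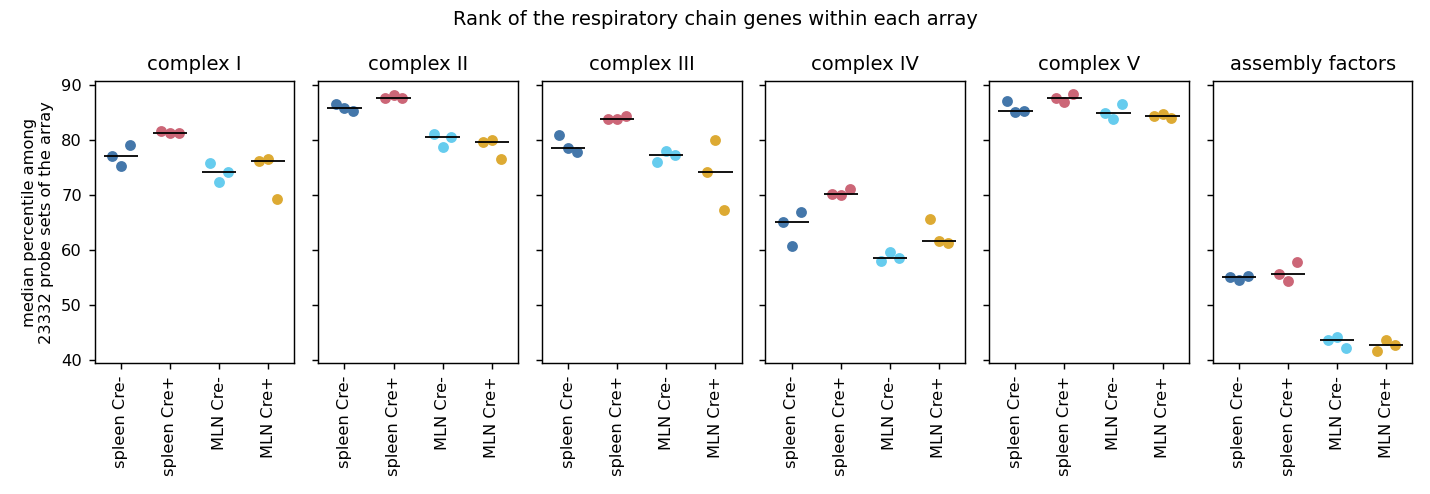
Median percentile of each complex's genes among the 23332 probe sets of an array (vertical axis), by group; points are the 12 arrays and lines the median of 3 arrays. Complexes I to IV are higher in all 3 spleen Cre+ arrays than in the spleen Cre- arrays, and MLN Cre+ replicate 3 is the lowest array for complexes I, II and III.

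The first comparison set the spleen Cre+ arrays against the spleen Cre- arrays. The Y-linked gene Eif2s3y fell from a mean of 9.91 to 3.17 between them, so genotype and sex cannot be told apart here. 2 of the 60 genes rose in spleen Cre+ and none fell (limma, Benjamini-Hochberg adjusted p under 0.05 over all probe sets), against 2.17% of all probe sets called, 1.24% higher and 0.93% lower. Both encode complex I subunits: Ndufs8 rose by 0.57 on the log2 scale and Ndufa6 by 1.00. Most of the others were also higher without passing the test: 49 of 60 differences were above 0 (81.7%, against 52.9% of all probe sets), and their median was 0.17, against 0.01. In 24 genes all 3 Cre+ arrays lay above all 3 Cre- arrays, against 12.4% of all probe sets, and in 1 gene all lay below, against 9.37%. Before adjustment, 24 of the 60 had p under 0.05 (3779 of 23332 over all probe sets). In bulk samples, fewer cells of a type and less RNA per cell cannot be told apart.

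Ndufs8, a core iron-sulfur subunit on the path to coenzyme Q, measured 10.83, 10.69 and 10.94 in the spleen Cre- arrays and 11.32, 11.49 and 11.35 in the Cre+ arrays. Every Cre+ array was above every Cre- array. The difference was 0.57 (SE 0.11, 95% interval 0.33 to 0.80), a 1.48-fold higher level, with an adjusted p of 0.0259. It stayed called after joint quantile normalization of the 12 arrays (0.54, adjusted p = 0.0293) and was the only member called there, against 1.23% of all probe sets (0.647% higher, 0.579% lower). After a shift of every array to 1 median, Ndufs8, Ndufa6 and Uqcrfs1 were called, against 2.76% (1.69% higher, 1.07% lower). Ndufs8 alone of the 60 was called under all 3 scalings, against 0.587% of all probe sets higher and 0.497% lower.

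Ndufa6, an accessory subunit, measured 8.92, 8.58 and 9.34 in Cre- and 9.96, 9.99 and 9.90 in Cre+. The Cre+ arrays were close together (SD 0.04) and above the more scattered Cre- arrays (SD 0.38). The difference was 1.00 (SE 0.19, 95% interval 0.59 to 1.42), 2.00-fold, with an adjusted p of 0.0259; after joint quantile normalization it was 0.86 with an adjusted p of 0.0808. Neither gene was called when spleen Cre- replicate 1 or 2, or any 1 of the 3 spleen Cre+ arrays, was left out, or when the spleen arrays were fitted alone. Of all probe sets, 0.84% and 0.904% were called without those Cre- arrays. Without spleen Cre+ replicates 1, 2 and 3 the shares were 1.14%, 0.604% and 1.58%. Without MLN Cre+ replicate 3, 4 genes were called in spleen, the 2 above with Uqcr10 and Ndufc2 (1.83% of all probe sets called). Without spleen Cre- replicate 3 Cox6a2 was added to the 2 above (2.22%), and without MLN Cre- replicate 3 Sdhd (2.19%). With dim probe sets left out, or with probe sets of 1 symbol alone, 7 members were called in each case, beside 721 of 13999 and 482 of 14996 probe sets. The 5 added were Ndufb9, Sdhd, Uqcrfs1, Uqcr10 and Cox6a2, of which Ndufb9 was named after its values were seen.

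Over complex I, 23 of 27 subunit differences in spleen were above 0, with a median of 0.19 (0.13 over the 5 core and 0.20 over the 22 accessory subunits). The remaining core subunits gave values of 0.03 for Ndufs1, 0.07 for Ndufs7, 0.13 for Ndufv1, which binds NADH, and 0.37 for Ndufv2. None of these 4 passed the test.

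In complex II, Sdhd, which anchors the enzyme in the membrane, measured 10.06, 9.94 and 9.98 in spleen Cre- and 10.35, 10.51 and 10.47 in Cre+. The groups did not overlap. The difference was 0.45 (SE 0.12), with an adjusted p of 0.0762. The second anchor, Sdhc, differed by 0.20 (SE 0.09, adjusted p = 0.298). Of the catalytic subunits, Sdha, which oxidises succinate, differed by -0.12 (adjusted p = 0.546) and the iron-sulfur subunit Sdhb by 0.06 (adjusted p = 0.828). None of the 4 passed the test.

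Among the complex III genes that the symbol rule takes in, all 5 differences in spleen were above 0, with a median of 0.29. In 4 of the 5 all Cre+ arrays lay above all Cre- arrays, against 12.4% of all probe sets. Cyc1, a complex III gene outside the rule, differed by 0.13 (limma adjusted p = 0.657). Its arrays overlapped, at 9.09, 8.86 and 8.60 in Cre- and 8.94, 9.01 and 9.01 in Cre+. The Rieske iron-sulfur protein Uqcrfs1 measured 7.30, 7.42 and 7.31 in Cre- and 7.65, 7.63 and 7.63 in Cre+. The Cre+ arrays were nearly equal (SD 0.01) and above all controls, with a difference of 0.29 (SE 0.07, adjusted p = 0.0638). The small accessory subunit Uqcr10 measured 9.13, 8.91 and 8.86 in Cre- and 9.52, 9.50 and 9.48 in Cre+. These groups did not overlap either, and the difference was 0.54 (SE 0.14, adjusted p = 0.0769).

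Complex IV had the highest median difference in spleen, 0.33 over 10 genes, of which 9 were above 0. It holds 6 widely expressed forms (median 0.33) and 4 forms known from other tissues (median 0.35). Cox6a1, the widely expressed form of subunit 6A, measured 10.73, 10.57 and 10.59 in Cre- and 10.88, 11.14 and 11.01 in Cre+. The groups did not overlap, and the difference of 0.38 (SE 0.10) had an adjusted p of 0.0856. Cox6a2, the form known from heart and skeletal muscle, measured 9.44, 8.82 and 9.94 in Cre- and 10.17, 10.22 and 10.34 in Cre+. The spread of its Cre- arrays was the widest of the 60 genes in that group (SD 0.56), all Cre+ arrays were above them, and the difference of 0.84 (SE 0.22) had an adjusted p of 0.0786.

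Complex V showed smaller differences. Its median was 0.12 over 8 genes and 6 were above 0. In 1 of the 8 all Cre+ arrays lay above all Cre- arrays, a share near the 12.4% of all probe sets. The central stalk subunit epsilon, Atp5e, differed by 0.32 (SE 0.15, adjusted p = 0.323) and the delta subunit, Atp5d, by 0.14 (SE 0.10, adjusted p = 0.546). The catalytic subunits gave -0.06 for Atp5a1 and 0.04 for Atp5b, with adjusted p of 0.859 and 0.885.

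The 6 assembly factors had a median of 0.02 in spleen, 3 above 0. Ndufaf7 was the member with all 3 Cre+ arrays below the controls, at 7.38, 7.38 and 7.28 in Cre- and 7.17, 6.95 and 7.10 in Cre+ (difference -0.27, adjusted p = 0.137). It was named after its values were seen.

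**Figure D2:**
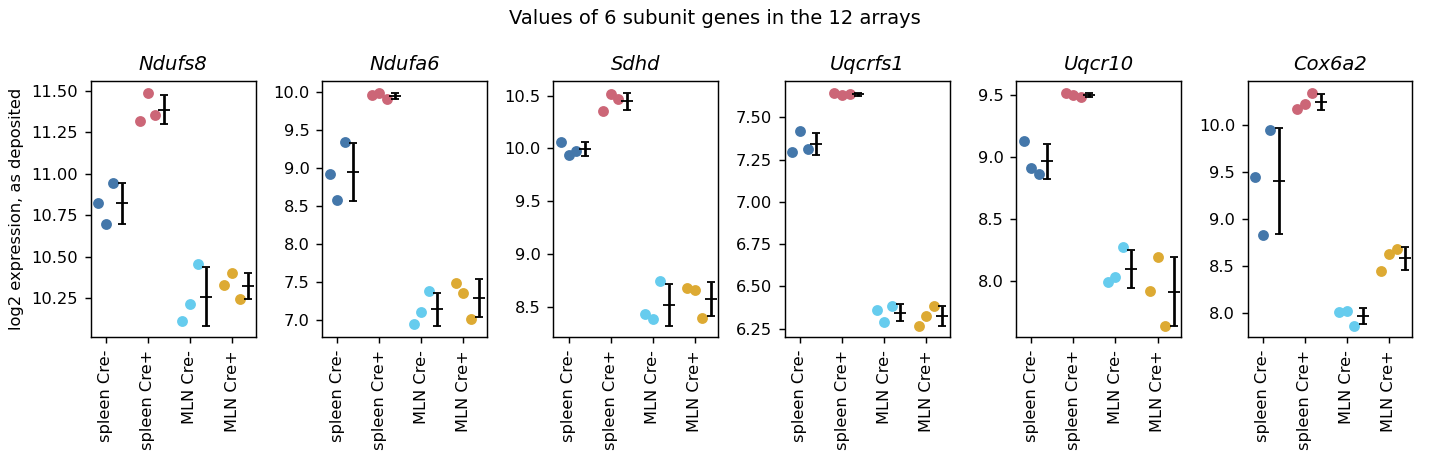
Deposited log2 expression (vertical axis) of 6 subunit genes in the 12 arrays; points are arrays, and the bar beside each group is the mean with its SD (n = 3). In spleen the Cre+ points of each gene lie above the Cre- points, of which the Ndufs8 and Ndufa6 differences passed the test.

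Other gene lists were measured beside these in spleen, where 1.24% of all probe sets rose and 0.93% fell. Among 68 genes of the mitochondrial ribosome, which translates the subunits encoded in mitochondrial DNA, 3 rose (Mrpl22 by 1.14, Mrpl34 by 0.53 and Mrpl16 by 0.40), none fell and 59 were above 0, with a median of 0.18. None of 15 TCA cycle genes, 13 glycolysis genes, 12 genes of electron carriers and coenzyme Q, 21 assembly factors of complexes II to V, 17 regulators of mitochondrial biogenesis or 16 cytosolic ribosome genes passed the test. Their medians were 0.05, 0.08, 0.07, 0.13, 0.02 and 0.09.

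Markers of other cells and of division also differed between the spleen groups. Of 10 proliferation genes, 6 rose, among them Mki67 by 0.80, and their summed level (log2) ranged from 12.04 to 12.36 in Cre- and from 12.85 to 13.01 in Cre+. Of 11 neutrophil markers, 7 rose, among them Ngp by 2.70, with sums of 12.47 to 12.70 and 13.51 to 14.56. Of 13 macrophage markers, 3 fell, among them Cd163 by 1.28, with sums of 14.72 to 15.11 and 14.38 to 14.53. Of 7 plasmacytoid DC markers, a list added after the data were seen, 3 fell, with sums of 13.74 to 13.94 and 13.32 to 13.52. None of 6 T cell, 7 B cell or 7 DC markers passed the test, and no marker was listed at 0. Their part in the respiratory chain values was not tested.

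The Y-linked genes Eif2s3y and Kdm5d fell in spleen Cre+, Eif2s3y from a mean of 9.91 to 3.17, so a difference in sex between the spleen groups cannot be told apart from genotype. 3 of the 60 genes lie on the X chromosome (Ndufa1, Ndufb11 and Cox7b). Without them the median in spleen was 0.19, with 48 of 57 above 0 and 24 without overlap on the higher side.

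In MLN, no respiratory chain gene was called between genotypes in limma, against 0.0857% of all probe sets (0.0729% higher, 0.0129% lower); 4 of the 60 had an unadjusted p under 0.05, as did 2783 of the 23332 probe sets. The median difference was 0.07, against 0.08 over all probe sets, and 44 of 60 were above 0 (73.3%, against 66.7%). After joint quantile normalization the median was -0.05, against -0.01, with 24 above 0 and again none called (0.227% of all probe sets, 0.167% higher and 0.06% lower), so the direction of the list in MLN turned with the scaling. The sign of 21 of the 60 differed between the 3 scalings, that of Ndufs8 among them. The groups did not overlap in 4 genes on the higher and 2 on the lower side as deposited, against 13.4% and 4.29% of all probe sets. Without MLN Cre+ replicate 3 the median was 0.12 (0.05 over all probe sets), and 51 of 60 were above 0. With array weights, 3 genes were called (Ndufs1, Ndufaf2 and Ndufv2, of which Ndufaf2 was named after its values were seen), beside 966 of all probe sets against 20 without weights. The 95% intervals had half-widths of 0.16 to 0.70, with a median of 0.29, and 59 of the 60 intervals lay within 1 log2 unit of 0. Of the 13 macrophage markers 1 rose in MLN, with sums of 10.70 to 11.14 in Cre- and 11.35 to 11.58 in Cre+, whose part in these values was not tested.

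As deposited, Cox6a2 and Ndufb7 were the members whose Cre+ arrays lay above all Cre- arrays in both spleen and MLN. Of all probe sets, 12.4% lay so in spleen and 13.4% in MLN, and the share in both tissues was not counted. In MLN, Cox6a2 measured 8.01, 8.02 and 7.86 in Cre- and 8.44, 8.63 and 8.68 in Cre+. No Cre+ array reached down to the controls, but the difference of 0.62 (SE 0.22, 95% interval 0.14 to 1.10) had an adjusted p of 0.359. The core subunit Ndufs1 differed by 0.25 (SE 0.08, adjusted p = 0.352) and the accessory subunit Ndufb7 by 0.18 (SE 0.08, adjusted p = 0.417), the latter from 8.11, 8.16 and 7.92 in Cre- to 8.21, 8.24 and 8.29 in Cre+. After joint quantile normalization the MLN arrays of Ndufb7 overlapped, at 8.73, 8.73 and 8.27 in Cre- and 8.63, 8.64 and 8.53 in Cre+. Those of Cox6a2 did not.

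The genes that led in spleen did not pass the test in MLN. Ndufs8 measured 10.11, 10.21 and 10.45 in MLN Cre- and 10.33, 10.40 and 10.24 in Cre+. These arrays overlapped, with a difference of 0.07 (95% interval -0.17 to 0.30) that was -0.071 after quantile normalization. Ndufa6 measured 6.95, 7.11 and 7.38 in Cre- and 7.49, 7.36 and 7.01 in Cre+, also overlapping, with a difference of 0.14 (95% interval -0.27 to 0.56).

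In complex II of the MLN, Sdhb differed by 0.19 (SE 0.11, adjusted p = 0.479) and Sdha by 0.12 (SE 0.08, adjusted p = 0.545). In complex III, Uqcrc2 differed by 0.13 (adjusted p = 0.557) and Uqcr10 by -0.18 (adjusted p = 0.585). In complex V, the catalytic beta subunit Atp5b differed by 0.15 (adjusted p = 0.508) and the membrane subunit Atp5j2 by 0.36 (adjusted p = 0.529). In complex IV, Cox7b, an X-linked subunit, differed by -0.29 (adjusted p = 0.652). Per complex the medians were 0.10, 0.11, -0.02, 0.01 and 0.05 for complexes I to V, and 0.12 for the assembly factors.

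The genotype differences of the tissues were then compared with each other. No member passed the test of the difference between them in limma, against 0.163% of all probe sets (0.137% higher, 0.0257% lower); 11 of the 60 had an unadjusted p under 0.05, as did 2845 of the 23332 probe sets. The MLN difference was above the spleen difference in 19 of 60 genes, with a median of -0.11 (MLN minus spleen), against 0.06 over all probe sets. Without MLN Cre+ replicate 3 it was above in 22 of 60, with a median of -0.08, against 0.03 over all probe sets. After joint quantile normalization none was called either (0.116% of all probe sets, 0.0857% higher and 0.03% lower), with 15 at an unadjusted p under 0.05 (2970 over all probe sets). Ndufs8 gave -0.50 (SE 0.15, adjusted p = 0.227), Ndufa6 -0.86 (SE 0.27, adjusted p = 0.244) and Uqcr10 -0.72 (SE 0.19, adjusted p = 0.186). With array weights Ndufs8 alone was called, at -0.51 with an adjusted p of 0.0428, beside 1007 of all probe sets against 38 without weights. The Y-linked Eif2s3y gave 6.91 (adjusted p = 0.00256) and Kdm5d 3.87 (adjusted p = 0.0186), so sex cannot be told apart from genotype by tissue. A spleen difference that passes the test beside an MLN difference that does not is thus not shown to be particular to spleen.

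**Figure D3:**
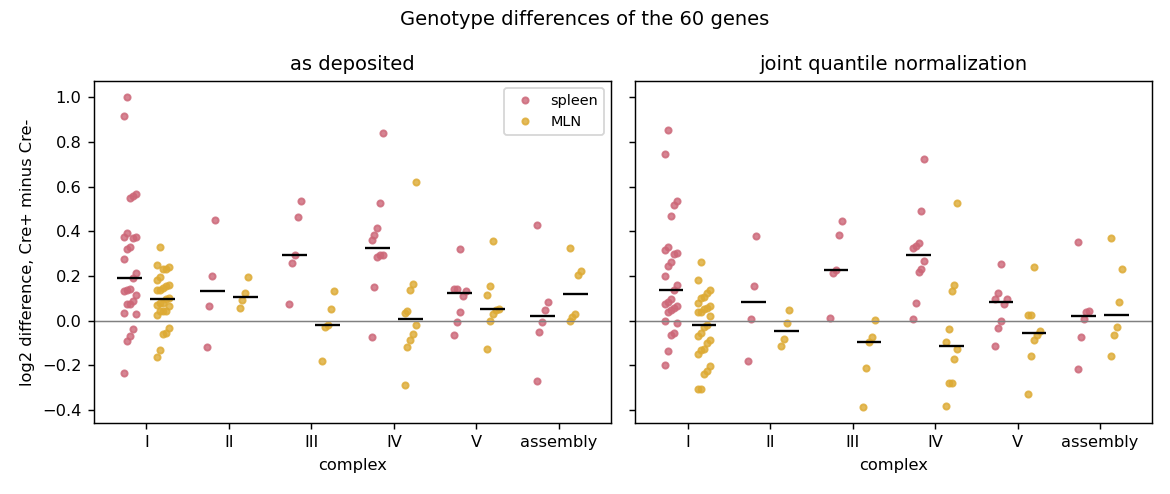
Log2 differences, Cre+ minus Cre- (vertical axis), of the 60 genes by complex in spleen and MLN, as deposited (left) and after joint quantile normalization (right); points are genes and lines medians. Spleen medians are above 0 in every complex under both scalings, whereas MLN medians of complexes I, II, IV and V are above 0 as deposited and below 0 after quantile normalization.

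Tissues were compared within each genotype, as MLN CD103+ DC minus splenic CD11c+ DC, after joint quantile normalization because the deposited value distributions differed between tissues. Tissue, sorted population, sorting method, the authors' processing of each tissue and sex cannot be told apart here. Quantile-normalized Eif2s3y differed by -1.70 in Cre- (adjusted p = 0.0145) and by 4.37 in Cre+ (adjusted p = 6.1e-05). In Cre- mice 26 of the 60 genes were lower in MLN and 9 were higher, and the median difference was -0.20, against 0.03 over all probe sets. The background was broad: 64.1% of all probe sets were called, 34.4% higher and 29.7% lower. As deposited, 52 genes were lower and 2 higher (75.3% of all probe sets called, 26.3% higher and 49% lower), with a median of -1.07 against -0.36 over all probe sets. After a shift of every array to 1 median, 49 were lower and 6 higher (75.2% of all probe sets called, 35.5% higher and 39.7% lower). In all, 25 genes were lower under all 3 scalings (23.7% of all probe sets) and 1, Cox8b, was higher under all 3 (20.4%), while the sign of 14 depended on the scaling.

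In complex I, the 3 largest falls among the called subunits of Cre- mice were in Ndufa1, Ndufb3 and Ndufa6, all accessory subunits. Quantile-normalized Ndufa1 measured 6.50, 5.93 and 6.02 in spleen and 4.29, 4.51 and 4.54 in MLN. All MLN arrays were below all spleen arrays. The difference was -1.70 (SE 0.15, adjusted p = 5.95e-06), and it was -1.35 (SE 0.15) for Ndufb3 and -1.10 (SE 0.20) for Ndufa6. The core subunit Ndufs1 fell by 0.93 (adjusted p = 3.1e-06).

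Of the complex I subunits that were higher in MLN after quantile normalization, some changed sign with the scaling and some did not. Ndufs8 measured 10.28, 10.20 and 10.41 in spleen Cre- and 10.78, 10.85 and 10.92 in MLN Cre-, without overlap. That difference of 0.56 (SE 0.09, adjusted p = 0.00048) became -0.56 as deposited and -0.27 after the median shift. Ndufb9 gave 0.94 (adjusted p = 0.000257) after quantile normalization and -0.09 as deposited. Ndufb10, at 0.79 (adjusted p = 0.000903), was above 0 under all 3 scalings, though not called as deposited (0.30, adjusted p = 0.105), and measured 6.79, 7.02 and 7.03 in spleen and 7.43, 7.92 and 7.85 in MLN, again without overlap.

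In complex II, Sdhb was lower in MLN Cre- by 0.91 (SE 0.13, adjusted p = 0.00012), from 9.32, 9.23 and 9.16 to 8.34, 8.35 and 8.30. The arrays of the tissues did not overlap. Sdha fell by 0.43 and Sdhd by 0.41 (adjusted p = 0.00119 and 0.0139), the latter not called without MLN Cre- replicate 2 (-0.36, adjusted p = 0.0521). The anchor Sdhc went the other way after quantile normalization, at 0.44 (adjusted p = 0.000474), but it was -0.47 as deposited.

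In complex III, Uqcrfs1 fell from 7.11, 7.26 and 7.13 to 6.37, 6.30 and 6.38, a difference of -0.81 (SE 0.06, adjusted p = 3.08e-06). No array of one tissue reached the other. Uqcrc1, a core protein without a redox centre, gave 0.47 (adjusted p = 0.000649) after quantile normalization and -0.66 as deposited.

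In complex IV, Cox7a2, the widely expressed form of subunit 7A, measured 6.88, 6.76 and 6.76 in spleen Cre- and 5.30, 4.77 and 5.12 in MLN Cre-. The MLN arrays were all lower, and the difference was -1.74 (SE 0.19, adjusted p = 2.75e-05). Cox4i1, the widely expressed form of subunit 4, fell by 0.65 (adjusted p = 0.00414) and Cox6a1 by 0.29 (adjusted p = 0.0143). Cox8b, the heart and muscle form of subunit 8, measured 5.53, 5.61 and 5.95 in spleen and 6.09, 6.05 and 5.96 in MLN, a difference of 0.34 (SE 0.13, adjusted p = 0.0411) between arrays that nearly touched. The Cox8b call was kept in 10 of 18 alternatives, with adjusted p up to 0.145. It was lost without spleen Cre- replicate 1 or 2, spleen Cre+ replicate 1, any MLN Cre- array or MLN Cre+ replicate 2, and with the replicate number as a block (adjusted p = 0.0616). The Cox6a1 call was lost without spleen Cre- replicate 1 (-0.26, adjusted p = 0.0515).

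In complex V, Atp5mpl, a small membrane subunit, measured 8.89, 8.64 and 8.36 in spleen Cre- and 6.87, 7.13 and 6.89 in MLN Cre-, a difference of -1.67 (SE 0.21, adjusted p = 6.69e-05). The arrays did not overlap. The catalytic alpha subunit Atp5a1 fell by 0.65 (adjusted p = 0.00189), while its partner beta, Atp5b, gave -0.09 (95% interval -0.25 to 0.06). Atp5pb, of the peripheral stalk, was higher by 0.65 (adjusted p = 0.000855), with 6.98, 6.81 and 6.67 in spleen and 7.32, 7.39 and 7.70 in MLN. It was above 0 under all 3 scalings, though not called as deposited (0.24, adjusted p = 0.125).

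Among the complex I assembly factors, which are not subunits, 4 of 6 were lower in MLN Cre- and none was higher. Ndufaf4 fell by 1.38 (SE 0.19), Ndufaf2 by 0.63 (SE 0.12) and Ndufaf1 by 0.61 (SE 0.11). These 3 were named after their values were seen.

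In Cre+ mice 38 of the 60 genes were lower in MLN and 4 were higher after quantile normalization, against 30.6% of all probe sets higher and 27.4% lower (58% called). The median was -0.45, against 0.03. As deposited, 52 were lower and 1 higher (71.7% of all probe sets called, 26.5% higher and 45.2% lower). After the median shift, 51 were lower and 3 higher (73.2% called, 34.6% higher and 38.5% lower). Of the 60, 37 genes were lower under all 3 scalings (21.4% of all probe sets), none was higher under all 3 (18.2%), and the sign of 11 depended on the scaling. Without MLN Cre+ replicate 3, 33 were lower and 6 higher, with a median of -0.41. Over all probe sets, that setting gave 25.8% lower and 28.6% higher (54.3% called), with a median of 0.02.

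Per complex, the lower genes in Cre+ numbered 17 of 27 in complex I, 3 of 4 in II, 4 of 5 in III, 5 of 10 in IV, 5 of 8 in V and 4 of 6 among the assembly factors. The corresponding Cre- counts were 13, 3, 1, 3, 2 and 4. The difference between the genotypes in this contrast is the genotype by tissue test above, in which no member was called.

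Ndufa6 had the largest fall in Cre+, from 9.41, 9.42 and 9.35 to 7.80, 7.60 and 7.07 after quantile normalization. The lowest of the MLN arrays was replicate 3, and none reached the spleen arrays. The difference was -1.90 (SE 0.20, adjusted p = 3.19e-05). Ndufc2, another accessory subunit, measured 11.15, 11.25 and 11.11 in spleen and 9.81, 9.96 and 9.04 in MLN, a difference of -1.57 (SE 0.20, adjusted p = 8.76e-05), with replicate 3 again the lowest. Ndufa7 gave -1.56 (SE 0.36, adjusted p = 0.00369), and had the widest interval among the 60 genes.

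Cox7a2, at -1.84 (adjusted p = 2.84e-05), and Atp5mpl, at -1.68 (adjusted p = 8.87e-05), fell in Cre+ as they had in Cre-. Uqcrfs1 fell by 1.11 (adjusted p = 9.77e-07), Cox4i1 by 1.15, Sdhd by 0.91, Sdhb by 0.87, Cox6a1 by 0.79, Uqcr10 by 0.77, Uqcrq by 0.74, Atp5e by 0.69 and Atp5a1 by 0.62. The genes that were higher were Ndufb10 (0.53), Atp5pb (0.49), Uqcrc1 (0.36) and Sdhc (0.21), of which Uqcrc1 and Sdhc were -0.68 and -0.58 as deposited. The Sdhc call was lost without spleen Cre- replicate 2 or any 1 of the spleen Cre+ or MLN Cre+ arrays (adjusted p up to 0.109). The Ndufs8 value was -0.05 (95% interval -0.26 to 0.16).

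**Figure D4:**
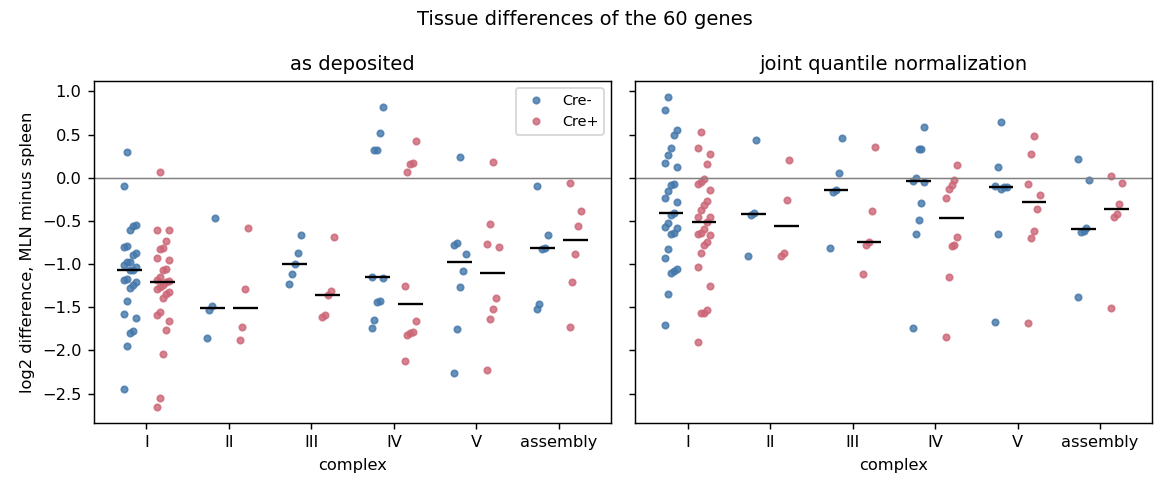
Log2 differences, MLN minus spleen (vertical axis), of the 60 genes by complex in Cre- and Cre+ mice, as deposited (left) and after joint quantile normalization (right); points are genes and lines medians. Quantile normalization moves the median over all members from -1.07 to -0.20 in Cre- and from -1.25 to -0.45 in Cre+.

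The complex IV forms known from other tissues differed in where their probe sets lay within an array. Cox7b2, known from testis, lay between the 0.87th and the 3.18th percentile on all 12 arrays. Cox8b lay between 24.5 and 35.5 and Cox4i2, a form of subunit 4 known from lung, between 32.8 and 50.9. Cox6a2 lay between 70.1 and 90.2, higher in every spleen Cre+ array than on any other array. Cox6b1, a widely expressed form, lay between 88.5 and 96.9. Among the core subunits, Ndufs7 lay between 98.9 and 99.4, Ndufv1 between 77.5 and 83.9, and Sdha between 95.2 and 97.7. Signals of different probe sets are not comparable as amounts, so these positions place each probe set in its array only.

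The other mitochondrial lists were compared between tissues in the same way. Of all probe sets, 29.7% were lower in MLN and 34.4% higher in Cre-, and 27.4% lower and 30.6% higher in Cre+. In Cre- mice, 11 of 15 TCA cycle genes were lower in MLN and 2 higher (median -0.41), 25 of 68 mitochondrial ribosome genes were lower and 17 higher (median -0.17), and 5 of 13 glycolysis genes were lower and 5 higher (median 0.26). In Cre+ mice these counts were 11 and 1 of 15, 30 and 7 of 68, and 4 and 3 of 13. Of the 16 cytosolic ribosome genes, 10 were lower and 1 higher in Cre-. Macrophage markers were lower in MLN in 13 of 13 genes in both genotypes, with quantile-normalized sums of 14.22 to 14.62 in spleen Cre- and 11.05 to 11.43 in MLN Cre-. Neutrophil markers were lower in 9 of 11 in Cre-, with sums of 12.02 to 12.28 and 9.39 to 9.52, and T cell markers were higher in 5 of 6, with sums of 12.08 to 12.42 and 13.51 to 13.65. Plasmacytoid DC markers were lower in 5 of 7 in both genotypes and higher in 0 in Cre- and 2 in Cre+, with sums in Cre- of 13.23 to 13.45 in spleen and 12.53 to 12.64 in MLN. In Cre+ those sums were 12.77 to 12.97 and 12.32 to 12.44. B cell markers were lower in 1 of 7 and higher in 1 in Cre-, with sums of 14.17 to 14.47 in spleen and 14.36 to 14.53 in MLN. Proliferation genes were lower in 2 of 10 and higher in 1 in Cre-, and lower in 7 and higher in 1 in Cre+, where sums were 12.34 to 12.47 and 11.91 to 12.14. Their part in the respiratory chain values was not tested.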

How the data were processed

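Per the labels, GeneSpring was used by the authors for robust multi-array averaging (RMA) at gene level. The deposited values were taken as log2 because of the range they span. Neither the release of the software nor the probe annotation is given in the sources used here. RMA values carry no detection call, and the number of arrays (12) limits the precision. Groups follow titles and genotypes; in MLN Cre+ a cell type field naming Cre- mice was not followed.

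The values were fitted in limma 3.58.1 (R 4.3.3) with 4 group means over 12 arrays (8 residual and 2.66 prior degrees of freedom), two-sided, with Benjamini-Hochberg adjustment over 23332 probe sets, and called at adjusted p under 0.05. Genotype contrasts used values as deposited; tissue contrasts used values after joint quantile normalization of all arrays. For the genotype contrasts in spleen and MLN, the limma fit was tested on simulated data. The simulated noise was normal and independent, with 1 spread per probe set in all groups. It therefore does not cover a low array or groups of unequal spread. Members and lists were chosen with earlier results of these data known. Named genes were the called members and the 2 of smallest p per complex for genotype, the 3 largest called rises and falls per complex for tissue, and for levels the core subunits, the tissue-restricted forms and the highest and lowest means per complex. Alternatives were other scalings, leaving out dim probe sets (13999 kept, whose largest group mean passed percentile 40), probe sets with 1 symbol alone, trended and robust variance, array weights, a replicate block, arrays of 1 tissue alone and leaving out each array. Counts of groups without overlap and of calls shared by all 3 scalings were added after the data were seen. Motif letters were counted on both strands.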

Additional observations from a re-analysis of the deposited data

How the results depend on the processing

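The number of members called between genotypes in spleen (2) was 1 after joint quantile normalization, 7 with dim probe sets left out, 7 with probe sets of 1 symbol alone, 20 with array weights (19 higher, 1 lower; 2747 of all probe sets) and 0 with spleen arrays alone. It ranged from 0 to 4 over the 12 omissions of 1 array, beside 0.604% to 2.22% of all probe sets called. The cause of these changes was not tested. Fewer probe sets enter the adjustment under the dim filter and the 1-symbol setting, and fewer arrays enter with spleen alone and in the omissions. Array weights gave spleen Cre+ replicate 2 a weight of 6.04, and the others between 0.41 and 2.75. In MLN the count of 0 became 3 with array weights, and the test between tissues gave 1 with array weights; both were 0 under every omission of 1 array. The tissue counts were 54 as deposited and 55 after the median shift in Cre- (35 in the main setting, 32 to 39 over omissions), and 38 to 42 over omissions in Cre+ (42 in the main setting). Of all probe sets, 58.8% to 64.6% were called over the omissions in Cre- and 51.4% to 58.5% in Cre+. In the MLN genotype contrast the sign of 21 of the 60 members differed between scalings. Among the genes with the smallest p there, signs turned for Sdha in MLN (-0.011 after quantile normalization) and Uqcr10 in MLN (0.022 with array weights). In the Cre- tissue contrast they turned as deposited for Ndufb9 (-0.093), Ndufs8 (-0.56), Sdhc (-0.47) and Uqcrc1 (-0.66), and after the median shift for Ndufs8 (-0.27), Sdhc (-0.17) and Uqcrc1 (-0.37). In the Cre+ contrast they turned as deposited for Sdhc (-0.58) and Uqcrc1 (-0.68), and after the median shift for Sdhc (-0.36) and Uqcrc1 (-0.47).

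Samples of the groups share only a replicate number. Deviations of same-numbered arrays correlated at -0.077, -0.003 and -0.142 in spleen and 0.204, 0.001 and 0.31 in MLN (over all probe sets, not independent replicates), so the numbers were not taken as pairs. With the replicate number as a block, the counts were 2 in spleen, 0 in MLN and 0 for the test between tissues. Of all 23332 probe sets, 420, 2 and 10 were called there. The tissue counts were 35 in Cre- and 42 in Cre+, beside 14779 and 13295 of all probe sets.

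With 3 arrays per group, a median half-width of 0.29 (95%) on the genotype differences limits what could be seen.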
